A study of Homo sapiens with 5 samples.

Results

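Translation initiation factor genes were compared between PC9 cells left after gefitinib and parental PC9 cells. The genes were taken by name: every row of the authors' deposited table whose symbol starts with EIF and a digit from 1 to 6 was a member, and the 4E-binding protein genes were included. The EIF2AK kinases, antisense names and pseudogene symbols were not. This gave 48 genes among 27477 rows, and 6 EIF-named rows were left out as kinases or antisense RNAs. The rule is by name and uses no measured value, but the family was picked with earlier results of these data known.

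PC9 is an established human lung adenocarcinoma line that carries an activating EGFR mutation, and gefitinib inhibits the EGFR kinase. RNA-seq libraries of poly(A) RNA were labelled as 3 parental and 2 drug-tolerant samples of this 1 line, with no genotype or agent other than gefitinib named. Drug-tolerant cells had been kept in 50 nM gefitinib for 6 days and then in growth medium without a named drug for 3 days, and no drug was named for the parental libraries. The labels do not say whether replicates were separate cultures, so p-values reflect no more than library-to-library spread, possibly technical.

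Initiation factors bring the initiator tRNA, the small ribosomal subunit and the mRNA together, and the large subunit then joins them. eIF2 with GTP carries the initiator tRNA and eIF2B recharges it, eIF3 is the multi-subunit scaffold on the small subunit, and the cap-binding complex eIF4F joins eIF4E, eIF4G and the helicase eIF4A at the capped end of the mRNA. The 4E-binding proteins hold eIF4E away from eIF4G unless mTORC1 phosphorylates them. Several initiation factor mRNAs are reported to start with a terminal oligopyrimidine tract, a cytosine followed by a run of pyrimidines through which LARP1 and mTORC1 control their translation and stability.

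The bases around the annotated start of transcription show which members carry such a tract. Below, each line gives 10 bases before the start and 20 from it, in RefSeq's sequence of GRCh38.p14, and capitals mark a cytosine at the start together with the unbroken run of C and T that follows it. The first 7 lines are members with a tract, chosen because they span the range of fold changes described further on. The last 3 are members with no tract, and the start shown for EIF4G1 is 1 of its 3 annotated ones.
EIF3F, chr11:7987327-7987356, plus strand: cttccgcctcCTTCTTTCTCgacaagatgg
EIF3K, chr19:38619178-38619207, plus strand: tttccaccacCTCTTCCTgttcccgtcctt
EIF3M, chr11:32583821-32583850, plus strand: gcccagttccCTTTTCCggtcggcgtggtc
EIF3D, chr22:36529147-36529176, minus strand: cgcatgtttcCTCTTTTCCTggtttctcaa
EIF2S3, chrX:24054946-24054975, plus strand: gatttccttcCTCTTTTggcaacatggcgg
EIF4B, chr12:53006446-53006475, plus strand: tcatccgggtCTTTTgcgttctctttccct
EIF4A2, chr3:186783567-186783596, plus strand: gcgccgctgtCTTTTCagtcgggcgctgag
EIF4G1, chr3:184315154-184315183, plus strand: gggccgaccctcacttgcctgaaaccggct
EIF3B, chr7:2354817-2354846, plus strand: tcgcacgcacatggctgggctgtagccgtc
EIF1, chr17:41688875-41688904, plus strand: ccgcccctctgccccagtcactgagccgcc

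The deposited values are a DESeq2 result, in which a positive log2 fold change is higher in drug-tolerant cells and the error is the authors' standard error (SE). The table holds 1 mean level per gene over all 5 libraries, namely reads after division by the size factor of the library, with no value for a single library. Whole reads could still be worked out for genes with low levels, and size factors recovered this way ran from 0.789 to 1.19, or about 14.2 to 21.4 M counted reads per library. Parental libraries are called a, b and c, and the drug-tolerant ones a and b, because they could not be matched to replicate numbers. One parental library stood apart: among genes with a mean level under 10, the ratio of reads in genes with transcripts over 4000 nucleotides to reads in genes with transcripts under 2000 nucleotides was 0.810 in parental a, 0.518 in b and 0.507 in c, against 0.819 and 0.710 in drug-tolerant a and b. Among 1754 genes with a mean level of 5 to 10, parental a and both drug-tolerant libraries all lay above parental b and c in 681 (38.8%) and all lay below them in 330 (18.8%). Both drug-tolerant libraries lay above all 3 parental libraries in 280 (16%) and below them in 241 (13.7%). The 5 epithelial markers fixed for this check (EPCAM, KRT8, KRT18, KRT19 and CDH1) had mean levels of 3778 to 35758. Of 5 fibroblast markers 1 had a row, at 162, of 5 haematopoietic markers 2 had rows, at 2.82 and 3.65, and of 5 endothelial markers 3 had rows, the highest PECAM1 at 1616. None of these markers was called, but the haematopoietic CD14 and CD68 and the endothelial VWF had no adjusted p. The markers with the lowest p in the authors' deposited table were PECAM1 at 0.57 ± 0.26 (p = 0.028, adjusted p 0.44 by DESeq2) and KRT19 at −0.56 ± 0.29 (p = 0.052, adjusted p 0.47 by DESeq2). The endothelial CDH5, at a mean level of 253, was at 0.36 ± 0.26. These are shifts of the size seen among the factors below.

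No initiation factor gene passed the test. Of the 48 members, 47 had an adjusted p in the authors' deposited table, and 0 of the 47 were under 0.05 by DESeq2, where 0.552% of all 15223 tested genes were called. The lowest adjusted p among members was 0.43 in the authors' deposited table. At an unadjusted p under 0.05 there were 4 of 47 members (8.51%) against 10.8% of all tested genes, 2 of them above 0 (EIF4G1 and EIF4G2, 3.7% of all genes) and 2 below it (EIF3F and EIF3H, 7.1% of all genes). No other tool could be run on a table without counts. Fold changes of members in the authors' deposited table ran from −0.71 for EIF3F to 0.78 for EIF4G1, with a median of −0.22 where the median of all tested genes was −0.02. Of the 47, 28 were below 0 (59.6%) against 51.6% of all tested genes and 51.9% of the protein-coding ones.

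The precision was that of other well-expressed genes. The SE of the members in the authors' deposited table ran from 0.20 to 0.40 with a median of 0.27. At a mean level of at least 1000 the median SE was 0.27 for 38 members and 0.27 for all 3682 tested genes. For 29 of 47 members (61.7%) the 95% interval of the log2 fold change, computed from the authors' deposited table, lay inside −1 to 1, against 57.6% of all tested genes. These intervals and all printed folds rest on the deposited fold changes, which are moderated towards 0: for ANKHD1-EIF4EBP3, a low row resolved into reads, the ratio of group means was 0.57 on the log2 scale and the authors' deposited table gives 0.28. The size of this effect at higher levels was not measured. In bulk RNA a lower level per cell and fewer cells with a transcript cannot be told apart.

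**Figure D1:**
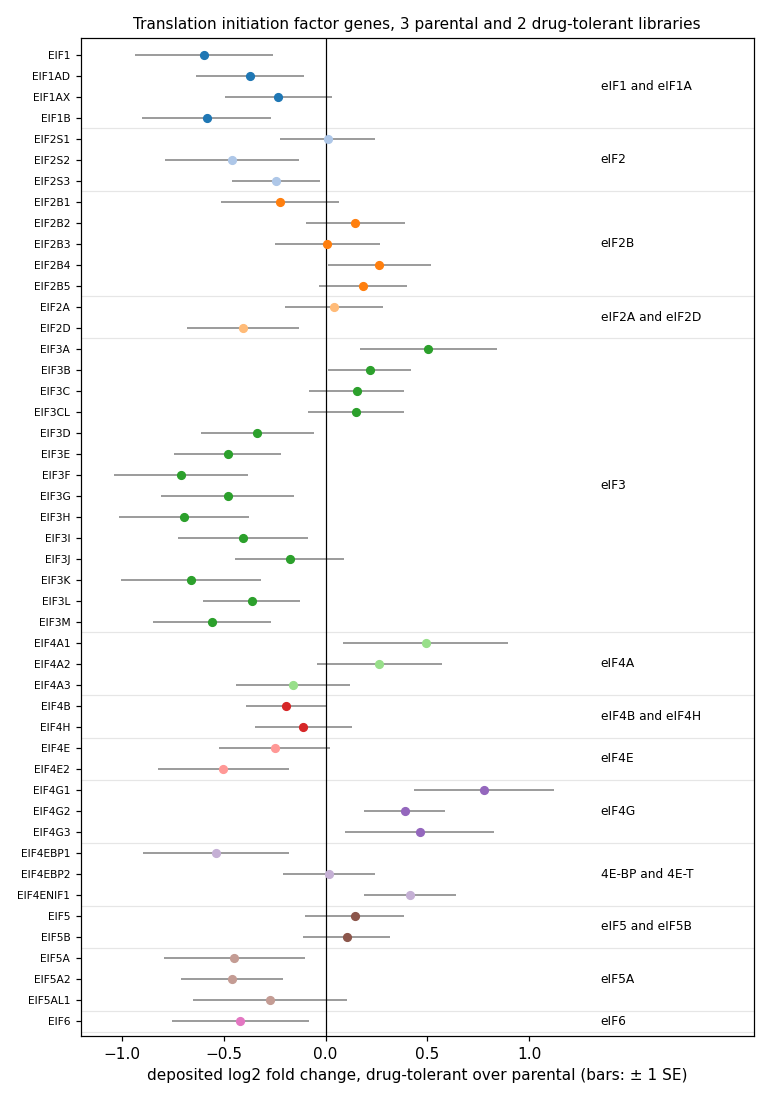
The deposited log2 fold change of each of the 47 tested initiation factor genes (x axis, drug-tolerant over parental, bars ± 1 SE) is drawn by factor group (y axis). EIF4G1 lies farthest to the right at 0.78 and EIF3F farthest to the left at −0.71, and 10 of the 14 eIF3 genes lie left of 0.

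eIF1 and eIF1A sit on the small subunit and keep it open for scanning until the start codon is found. All 4 genes placed in this group by name, EIF1AD included, were below 0 in the authors' deposited table, and none was called. EIF1 was at −0.59 ± 0.34 and its close paralog EIF1B at −0.58 ± 0.31 in the authors' deposited table. EIF1AX, the X-linked eIF1A gene, was at −0.23 ± 0.26 and EIF1AD, which holds an eIF1A-like domain, at −0.37 ± 0.27 in the authors' deposited table. These are short genes, with coding sequences of 339 to 495 nucleotides, a point taken up with the length comparison. EIF1 carried far more of the RNA than EIF1B: per kilobase of coding sequence its level was 11.8-fold higher, and per kilobase of transcript 5.49-fold.

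eIF2 is a trimer of alpha (EIF2S1), beta (EIF2S2) and gamma (EIF2S3) subunits. The alpha subunit, whose phosphorylation by stress kinases slows initiation, was at 0.01 ± 0.23 in the authors' deposited table. The beta subunit was at −0.46 ± 0.33 and the gamma subunit, which binds GTP and the initiator tRNA, at −0.24 ± 0.22 in the authors' deposited table, and none of the 3 was called. EIF2A and EIF2D, which can deliver tRNA to the ribosome without eIF2, were at 0.04 ± 0.24 and −0.41 ± 0.27 in the authors' deposited table.

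eIF2B is the exchange factor that recharges eIF2 with GTP, and phosphorylated eIF2 blocks it. Its genes lay mostly on the positive side: 4 of 5 were above 0 in the authors' deposited table, the median was 0.15 and no gene was called. EIF2B4 was at 0.26 ± 0.25, the catalytic subunit gene EIF2B5 at 0.18 ± 0.21, EIF2B2 at 0.15 ± 0.24, EIF2B3 at 0.01 ± 0.26 and EIF2B1 at −0.22 ± 0.29 in the authors' deposited table. Each of the 5 values lies within about 1 SE of 0. By level, the 5 genes ran from 188 for EIF2B4 to 1162 for EIF2B1 per kilobase of coding sequence, all under the 2827 of EIF2S1, the lowest of the 3 eIF2 subunits on that scale.

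eIF3 held the 3 lowest values of the family. Of its 14 tested genes, 10 were below 0 and 4 above in the authors' deposited table; the median was −0.38, and 0 were called. EIF3F, which encodes an MPN-domain subunit of the complex's octameric core (chromosome 11, 7970251 to 8001862, GRCh38; ENSG00000175390), was at −0.71 ± 0.33 in the authors' deposited table, a fold of 0.611, with p = 0.032 and an adjusted p of 0.45 by DESeq2. Its partner MPN subunit EIF3H (ENSG00000147677) was at −0.69 ± 0.32 in the authors' deposited table, a fold of 0.618, and its adjusted p by DESeq2 was 0.45. Of the other small core subunits, EIF3K (chromosome 19, 38619082 to 38636955) was at −0.66 ± 0.35 and EIF3M (chromosome 11, 32583798 to 32606262) at −0.56 ± 0.29 in the authors' deposited table.

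The remaining core subunits split by size. EIF3E was at −0.48 ± 0.26 and EIF3L at −0.36 ± 0.24 in the authors' deposited table. The large scaffold subunit EIF3A (chromosome 10, 119033670 to 119080823) was at 0.50 ± 0.34 and EIF3C (chromosome 16, 28688558 to 28735730) at 0.15 ± 0.23 in the authors' deposited table. The 8 core genes thus had a median of −0.52, with 6 below 0, and the 2 above 0 are the 2 with the longest coding sequences. Outside the core, the RNA-binding subunit genes EIF3D and EIF3G were at −0.33 ± 0.28 and −0.48 ± 0.33, EIF3I at −0.40 ± 0.32, the loosely bound EIF3J at −0.18 ± 0.27 and the scaffold EIF3B at 0.22 ± 0.20 in the authors' deposited table. The eIF3 genes above 0 were EIF3A, EIF3B, EIF3C and EIF3CL, and the other 10 were below it.

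EIF3CL is a near-identical copy of EIF3C on the same chromosome (16, 28379579 to 28403879). The authors' deposited table gives the 2 rows almost the same mean level, 10118 for EIF3C and 9763 for EIF3CL, and almost the same fold change, 0.15 ± 0.23 and 0.15 ± 0.24. Reads that match both cannot be told apart, and these rows are uncertain as 2 separate measurements. Levels of the eIF3 genes lay within 4.92-fold of each other per kilobase of coding sequence, from 1231 for EIF3A to 6050 for EIF3E, and within 13.8-fold per kilobase of transcript.

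The highest value of the family was that of an eIF4G scaffold. EIF4G1, the main scaffold that joins cap, helicase and eIF3 (chromosome 3, 184314495 to 184335358; ENSG00000114867), was at 0.78 ± 0.34 in the authors' deposited table, a fold of 1.71, with p = 0.024 and an adjusted p of 0.43 by DESeq2. EIF4G2, a scaffold that lacks the eIF4E-binding part (chromosome 11, 10797050 to 10809110; ENSG00000110321), was at 0.39 ± 0.20 with an adjusted p of 0.46 by DESeq2 in the authors' deposited table. EIF4G3 was at 0.46 ± 0.37 in the authors' deposited table, so all 3 scaffolds were above 0 and none was called. EIF4G1 exceeded EIF4G3 by 13.2-fold in level per kilobase of coding sequence, and 12.6-fold per kilobase of transcript.

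Of the cap-binding proteins and the proteins that bind them, 3 were below 0 and 2 above. EIF4E was at −0.25 ± 0.27 and EIF4E2, a cap-binding homolog that represses translation, at −0.50 ± 0.32 in the authors' deposited table. EIF4EBP1, the 4E-binding protein best known as a target of mTORC1, was at −0.54 ± 0.36 with an adjusted p of 0.52 by DESeq2, while its paralog EIF4EBP2 was at 0.02 ± 0.23 in the authors' deposited table. EIF4ENIF1, which encodes the eIF4E transporter 4E-T, was at 0.41 ± 0.23 in the authors' deposited table. Which of EIF4EBP1 and EIF4EBP2 was the more abundant depends on the length used: EIF4EBP2 over EIF4EBP1 was 2.79 in level per kilobase of coding sequence and 0.398 per kilobase of transcript, and EIF4E over EIF4E2 moved likewise from 2.45 to 0.345.

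Of the helicase cofactors, EIF4B was at −0.20 ± 0.20 and EIF4H at −0.11 ± 0.24 in the authors' deposited table. Among the eIF4A genes, EIF4A2 was at 0.26 ± 0.31 and EIF4A3, the exon junction helicase, at −0.16 ± 0.28 in the authors' deposited table. EIF4A1, the main helicase of eIF4F (chromosome 17, 7572706 to 7579005), was at 0.49 ± 0.40, but at a mean level of only 41.7 in the authors' deposited table. Its level was 136-fold below that of EIF4A2 per kilobase of coding sequence and 125-fold below it per kilobase of transcript. The row overlaps SENP3-EIF4A1, a readthrough transcript with a row of its own at a mean level of 1.29 in the authors' deposited table. The sources used here do not give the counting rule for overlapping genes, so EIF4A1's row is uncertain as a measure of the gene.

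Whole reads in each library could be worked out for the members whose mean level is low, EIF4A1, EIF5AL1 and EIF4EBP3. For EIF4A1, 8 sets of whole reads gave the deposited mean, and 2 of them had the deposited sign. The first of these gave EIF4A1 68.8, 7.86 and 7.29 normalized reads in parental a, b and c, against 57.3 and 67.2 in the drug-tolerant pair. The other gave 50.4, 44.2 and 4.16 against 88.2 and 21.6. The deposited mean does not settle which is right: they differ in where parental b stands, and the groups overlapped in both. A gap of more than 10-fold between parental b and c, as in the other set, was found in 4 of 512 genes (0.781%) with a mean level of 5 to 10 and at least 10 reads in b or c. In the first set the ratio of the group means was 2.22, or 1.15 on the log2 scale, while the authors' deposited table gives 0.49.

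EIF5AL1 had 2 possible sets of whole reads. The first gave 26.0, 46.2 and 50.0 normalized reads in parental a, b and c, against 36.2 and 25.4 in the drug-tolerant pair. The other gave 101.6, 34.4 and 2.08 against 0 and 45.6, so the place of parental a among the libraries is not settled for this gene either, and the groups overlapped in both sets. EIF4EBP3 had 2 reads in parental a and 0 in the other 4 libraries, too few for an adjusted p. Its readthrough row ANKHD1-EIF4EBP3, resolved in 1 way, had 49.5, 11.8 and 9.37 normalized reads in the parental libraries and 37.0 and 33.0 in the drug-tolerant ones, so parental a was the highest of all 5. For the members at higher levels, a difference between the conditions and a difference of parental b and c from the other 3 libraries cannot be told apart.

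**Figure D2:**
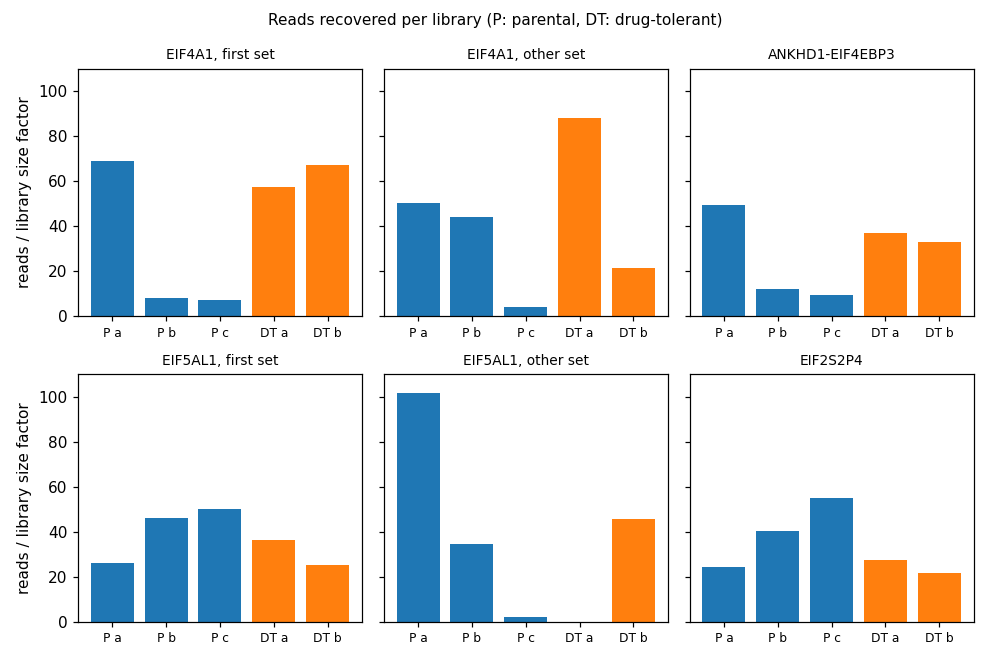
Reads divided by the library's size factor (y axis) in the parental libraries (P, blue) and the drug-tolerant libraries (DT, orange) are drawn for 4 rows of low level, with both sets of whole reads that have the deposited sign for EIF4A1 and EIF5AL1. In the rows resolved in 1 way, parental a stands with the high drug-tolerant bars in ANKHD1-EIF4EBP3 and with the low ones in EIF2S2P4, and in the other 2 rows its place differs between the sets.

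Factors that act at the start codon and after it were near 0 or below it. EIF5, which makes eIF2 hydrolyse its GTP, was at 0.14 ± 0.24 and EIF5B, the GTPase of subunit joining, at 0.10 ± 0.21 in the authors' deposited table. EIF5A, a hypusine-bearing factor that helps ribosomes through difficult peptide bonds, was at −0.45 ± 0.34, its paralog EIF5A2 at −0.46 ± 0.25 and the retrocopy EIF5AL1 at −0.27 ± 0.38 in the authors' deposited table. EIF6, which keeps large subunits from joining early, was at −0.42 ± 0.34 in the authors' deposited table. EIF5A exceeded EIF5A2 by 6.28-fold in level per kilobase of coding sequence and by 28.2-fold per kilobase of transcript.

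Across the family, longer coding sequences went with higher fold changes. All 10 members with a coding sequence over 2000 nucleotides were above 0 in the authors' deposited table (median 0.30). The 17 members of 1000 to 2000 nucleotides had a median of −0.20 with 10 below 0, and of the 20 members under 1000 nucleotides 18 were below 0, with a median of −0.41. Spearman's rho between fold change and coding length was 0.65 over the 47 members, and 0.60 over all 12451 tested protein-coding genes, which share the same 5 libraries. With the length of the principal annotated transcript, which was the measure planned, rho was 0.32 over the members and 0.53 over all genes; coding length was chosen after the data were seen. With the genes cut into 10 groups of equal number by coding length, the median fold change of all genes in the authors' deposited table went from −0.49, at a median of 426 nucleotides, to 0.47, at a median of 4863. Single members spread more widely than these medians, from −0.71 to 0.78. The direction of the trend is that of the long to short read ratio of parental a and the drug-tolerant libraries against parental b and c; the part of that ratio in the fold changes was not tested.

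Set against genes of their own length, the factor groups ranked differently. Of the 47 members, 24 lay below the median of their own length group and 23 above. With the trend on coding length and GC content removed over all protein-coding genes, the members' median moved from −0.22 to −0.05, and with transcript length in place of coding length to −0.10. No member was called after either removal (0 of 47 each), against 0.731% and 0.538% of all genes. eIF1 and eIF1A went to a median of −0.08, eIF5A to −0.06 and eIF4G to 0.16 with coding length removed. EIF4G1 kept 0.41 and EIF4EBP2, whose coding sequence has only 360 nucleotides, moved to 0.44. These values depended on the length used. With transcript length removed instead, eIF1 and eIF1A had a median of −0.30, eIF5A one of −0.33 and eIF4G one of 0.56. On that scale EIF4G1 was at 0.56, and EIF4EBP2 changed sign to −0.25.

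Whether the eIF3 genes were low for their length depended on the length used. With the coding length trend removed, their median was −0.29 where that of the 33 members outside eIF3 was 0.01, and 11 of 14 lay below the median of their own length group. The 8 core genes had a median of −0.46. EIF3F was at −0.61, EIF3H at −0.61, EIF3M at −0.48, EIF3E at −0.47, EIF3L at −0.44 and EIF3K at −0.34. With transcript length removed instead, the eIF3 median was −0.12 and that of the members outside eIF3 −0.09, so the gap between them was nearly gone. On that scale EIF3F, whose annotated transcript has 7540 nucleotides, was at −0.97. The difference between eIF3 and the other members was not tested.

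**Figure D3:**
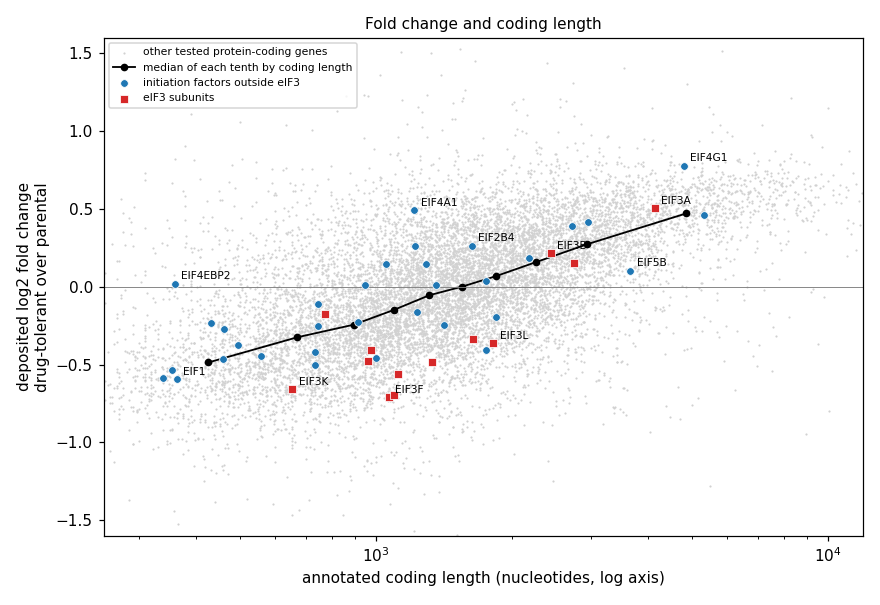
Deposited log2 fold change (y axis, drug-tolerant over parental) is plotted against annotated coding length (x axis, nucleotides, log axis) for 12451 tested protein-coding genes (grey, 182 outside the axes), with the median of each of the 10 length groups (black) and the initiation factors (blue, and red squares for eIF3). The black line climbs from −0.49 to 0.47, and 11 of 14 red squares lie below the median of their group.

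Members with the start tract shown above had a lower median than those without, as deposited and after the coding length trend was removed. Coding length was chosen after the data were seen, and these medians were not computed for the planned transcript length. RefSeq start sequences were matched for 40 of the 48 members. No entry was matched for EIF2S2, EIF3A, EIF3CL, EIF3E, EIF3G, EIF3H, EIF3L and EIF4EBP1. A tract was counted where the annotated start is a cytosine followed by at least 4 pyrimidines, on the transcribed strand only, at any annotated start of the gene. Of 39 tested members with an entry, 9 held one (23.1%), against 7.36% of 9720 tested protein-coding genes and 4.07% of 35116 annotated starts. They were EIF2A, EIF2D, EIF2S3, EIF3D, EIF3F, EIF3K, EIF3M, EIF4A2 and EIF4B.

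Of these 9, 7 were below 0 in the authors' deposited table and their median was −0.33, while the 30 members without a tract had 15 below 0 and a median of −0.05. The coding sequences of the 9 have a median of 1416 nucleotides and those of the 30 a median of 960. After removal of the coding length trend the medians were −0.34 and 0.04, with 8 of 9 and 12 of 30 below 0. EIF4A2, whose tract of 6 pyrimidines is printed above, was the exception at 0.31. With transcript length removed instead, EIF2A and EIF4A2 were above 0, at 0.24 and 0.51. The other genes with a tract then ran from −0.97 for EIF3F to −0.17 for EIF2S3. Members with an entry but no tract ran on that scale from −0.58 for EIF5A2 to 0.73 for EIF4A1. Medians with and without a tract were not computed on it, so the gap is given only as deposited and with coding length removed. Within eIF3 the 4 genes with a tract (EIF3D, EIF3F, EIF3K and EIF3M) had a deposited median of −0.61. The 4 with an entry but no tract (EIF3B, EIF3C, EIF3I and EIF3J) had one of −0.01. After removal of the coding length trend these eIF3 medians were −0.42 and −0.01. Outside eIF3 the gap was smaller: the 5 genes with a tract had a deposited median of −0.20, with 3 below 0, and those without one −0.05. With the coding length trend removed these medians outside eIF3 were −0.25 and 0.05. Over all tested protein-coding genes the same 2 medians were −0.16 and 0.00, and −0.09 and 0.00 after the trend was removed.

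A list of 10 members reported in the literature to carry such a tract, which includes 5 genes with no RefSeq entry here, was described likewise. Its remaining genes (EIF3F, EIF4B, EIF4A2, EIF2S3 and EIF2A) are all among the tract genes above, so the list is not a separate line of data. Of the 10, 7 were below 0 in the authors' deposited table (median −0.30), with a median of −0.18 for the other 37. Those 37 include the tract genes EIF2D, EIF3D, EIF3K and EIF3M. No test of either difference was made, a tract in an annotated start is not a measured start, and 0 of these genes were called.

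**Figure D4:**
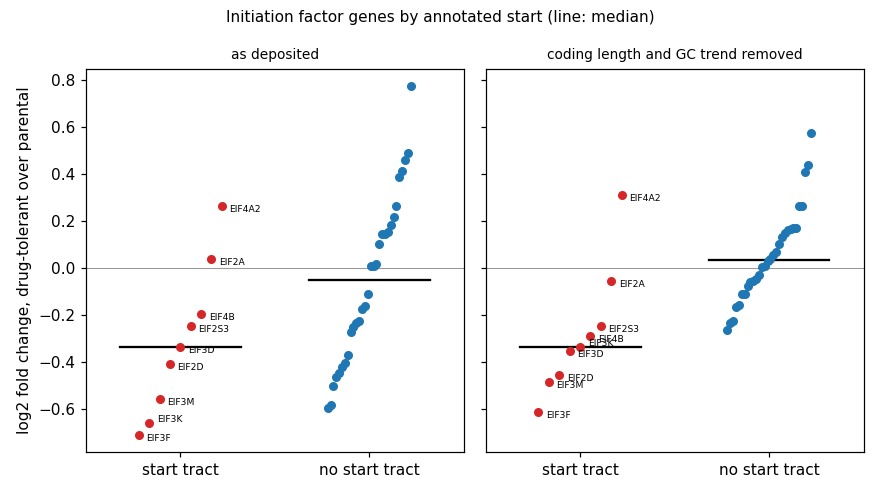
Log2 fold change (y axis, drug-tolerant over parental) of the 39 tested members with a RefSeq start, split by a cytosine and at least 4 pyrimidines at the start (red, 9 genes) or none (blue, 30 genes), is shown as deposited on the left and with the coding length and GC trend removed on the right. The black lines are medians, −0.33 and −0.05 on the left and −0.34 and 0.04 on the right.

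The genes that control these factors were read from lists of the pathways. For comparison with the counts below, DESeq2 called 0.552% of all 15223 tested genes. An unadjusted p under 0.05 was found in 10.8% of them, and 51.6% were below 0. Of 18 genes of cap and mTORC1 control, 0 were called in either direction in the authors' deposited table by DESeq2 (3 at an unadjusted p under 0.05), 11 were below 0 and the median was −0.07. The mTORC1 genes MTOR and RPTOR were at 0.88 ± 0.37 and 0.63 ± 0.26, their inhibitor TSC2 at 0.62 ± 0.29 and the activating GTPase RHEB at −0.48 ± 0.30 in the authors' deposited table. Of 12 genes of eIF2 control, which include the 4 eIF2 kinases, the authors' deposited table called 0 by DESeq2 (2 at an unadjusted p under 0.05) and 7 were below 0, with a median of −0.21. ATF4, the transcription factor translated when eIF2 is phosphorylated, was at −0.62 ± 0.33, its targets TRIB3 and ASNS at −0.60 ± 0.26 and −0.42 ± 0.26, and GCN1, an activator of the kinase GCN2, at 0.81 ± 0.38 in the authors' deposited table.

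Scanning, joining and recycling genes gave 0 calls of 10 by DESeq2 in the authors' deposited table (1 at an unadjusted p under 0.05) and a median of −0.12. The helicase DDX3X was at 0.71 ± 0.33 and the cap-binding subunit NCBP1 at 0.40 ± 0.26, while NCBP2 was at −0.41 ± 0.23 and MCTS1, a partner of DENR in recycling, at −0.49 ± 0.32 in the authors' deposited table. The enzymes that make hypusine on eIF5A, DHPS and DOHH, were at −0.30 ± 0.28 and −0.04 ± 0.34 in the authors' deposited table. In each of these lists the genes named are those with the lowest adjusted p, and none was under 0.05. No length trend was removed from the values of these lists. Over all tested protein-coding genes, longer coding sequences went with higher fold changes, and the part of length here was not tested.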

How the data were processed

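TriZol RNA and a stranded mRNA library kit were used, per the labels' protocols. FastQC, STAR, DESeq2 and the build hg38 were used, per the submitters' processing notes, with versions, counter, annotation and settings not given in the sources used here. A single DESeq2 result table was deposited by the authors: the mean level is a signal (reads over size factors, averaged over 5 libraries), the fold change and SE are log2 values, the Wald statistic is a score, and p-values and adjusted p-values come with them. All were deposited by the authors, and 0 columns of per-sample values were left out.

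A gene was called at the deposited adjusted p under 0.05. The edgeR test planned for counts was not run, because the table holds none. Every member was named, with up to 4 genes of lowest adjusted p from each pathway list. The members, lists and comparisons were chosen with earlier results of these data known.

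Lengths, GC content and coordinates came from GENCODE 29 (GRCh38). Coding length is the longest annotated coding sequence; it was chosen after the data were seen, in place of the principal transcript's, which is short for EIF4G2. Trends were removed from the fold changes and Wald scores over 12451 protein-coding genes, and p-values were adjusted over all of them. The deposited mean of a low gene is a sum of whole reads over size factors. For 12705 genes, those under a mean of 10, whole reads were found in 1 way within 1.5e-09, and 98.9% gave the deposited sign, which sets its direction. Read recovery was tested on simulated data with means under 10 only and with the size factors known. The recovery of the size factors and the split of libraries into parental and drug-tolerant were not part of that test. Rows above that mean, which include EIF4A1, EIF5AL1, ANKHD1-EIF4EBP3 and EIF2S2P4, were solved within a looser 6e-09. Neither the simulated data nor the share with the deposited sign covers those rows. Python 3.11.15, numpy 2.4.6, pandas 2.3.3 and scipy 1.17.1 were used.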

Additional observations from a re-analysis of the deposited data

How the results depend on the processing

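The count of called members stayed 0 at thresholds of 0.01 and 0.1, with p-values adjusted over every gene, with scores centred and scaled, and with either length trend removed. Removing a length trend moved the medians: the members' median from −0.22 to −0.10 (transcript length) and −0.051 (coding length), and the eIF3 median from −0.38 to −0.12 and −0.29. Of the 47 members, 26 to 31 were below 0 with a length trend removed. The coding length alternative was added after seeing the data. Leaving out replicates and refits with DESeq2 or edgeR were not run, since single-library values are not in the table. No paired analysis was possible because the deposited columns carry no replicate numbers. Of the members, 45 had a mean level of at least 100, and those at lower levels (EIF4A1, EIF5AL1 and EIF4EBP3) rest on few reads. Why these rows are low was not tested, and EIF4A1 and EIF4EBP3 each have a readthrough row of their own.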

Other observations

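Some pseudogene rows that the family's rule leaves out carry reads, and whether these come from the parent genes was not tested. The authors' deposited table gives the pseudogene rows EIF4BP6 and EIF4BP7 mean levels of 291 and 212 and EIF3FP3 one of 105, each far under its parent gene. EIF2S2P4 had 24.3, 40.3 and 55.2 normalized reads in parental a, b and c and 27.3 and 21.6 in drug-tolerant a and b, so parental a lay among the drug-tolerant values. EIF4HP2 had 15.1, 0.983 and 2.08 in the parental libraries and 14.1 and 15.2 in the drug-tolerant ones, with parental a again apart from b and c. Not every row had this form. EIF4A1P10 had 7.6, 3.9 and 8.3 in parental a, b and c and 2.6 and 8.9 in drug-tolerant a and b, so parental a lay between b and c. The row of EIF2S3B carries no symbol in the authors' deposited table and was no member; it had 10.1, 4.91 and 3.12 normalized reads in the parental and 5.29 and 6.34 in the drug-tolerant libraries.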
